A study of Homo sapiens with 4 samples.

Results

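The structural subunits of the proteasome were followed in PSME4 KD cells, in which PSME4 was knocked down, and in control KD cells. They were chosen by name: 30 genes of the 15037 in the count table that encode the non-catalytic subunits of the core particle and the subunits of the base and lid of the regulatory particle. All 30 were in the table and all 30 passed the filter on low counts, which left 13497 genes to test. The cells were A549, an established line of lung carcinoma epithelial cells grown in DMEM, in which mRNA was sequenced after poly(A) selection. There were 2 libraries of PSME4 KD and 2 of control KD, the knockdown in the control being labelled RFP, a fluorescent protein that is no gene of these cells. The labels do not say how either knockdown was made, whether the cells were a clone or a pool, or whether a group's libraries are separate cultures. The p-values therefore rest on a spread between libraries that could be technical.

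The proteasome is the protease that degrades most ubiquitin-tagged proteins in the cell. Its core is a barrel of stacked rings: outer alpha rings, whose tails gate the entrance, and inner beta rings, in which some subunits cut peptide bonds and others hold the ring together. The regulatory particle sits on an alpha ring and has a base, with a ring of ATPases that unfolds substrates, and a lid, which removes ubiquitin. PSME4 is another cap that binds the alpha ring in place of the regulatory particle. Within an assembled core, and within an assembled regulatory particle, the subunits stand in equal numbers. In mammalian cells the transcription factor NFE2L1 is known to raise proteasome genes together when proteasome activity falls.

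Depth was 11766371 to 15208588 counts per library, with the PSME4 KD libraries the deeper pair. PSME4 mRNA stood at 75.3 and 85.1 CPM (counts relative to the TMM-scaled library size) in PSME4 KD 1 and 2, against 158 and 180 CPM in control KD 1 and 2. Its log2 fold change, PSME4 KD over control KD as throughout, was −1.08 (SE 0.20, adjusted p = 0.000855, by the quasi-likelihood test of edgeR, Benjamini-Hochberg adjusted over 13497 genes). With 1 library left out it lay between −1.17 and −0.97, past the threshold only without PSME4 KD 2. The epithelial keratin KRT18 had 4119 and 3090 CPM in PSME4 KD and 3570 and 2820 CPM in control KD, and E-cadherin (CDH1) was also expressed in all 4 libraries. These belong to a list of 6 epithelial markers, of which none passed by edgeR. On that list 5 had a log2 fold change above 0 and 1 below, at −0.47. Of 10 markers of immune, endothelial, stromal and red blood cells, 7 were absent from the count table or did not pass the filter on low counts. The other 3 (CD68, COL1A1 and ACTA2) summed to 105 and 114 CPM in PSME4 KD, against 90.8 and 81.4 CPM in control KD. COL1A1, a fibrillar collagen, rose (log2 0.73, adjusted p = 0.0479, edgeR). The part of these markers in the results below was not tested. In bulk RNA, fewer cells with a transcript and less of it per cell cannot be told apart.

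Of the 30 structural subunits 3 rose, 6 fell and 21 did not pass an adjusted p of 0.05. Over all tested genes 10.6% passed, 4.56% higher and 6.0% lower in PSME4 KD. The subunits are abundant, and among the 6008 genes at least as abundant as the lowest of them the share was 12.8%, with 4.54% higher and 8.22% lower. Before adjustment, 13 of the 30 had a p under 0.05, beside 26.2% of all tested genes. DESeq2 called 3 subunits higher and 5 lower, beside 8.49% of all genes, 3.64% higher and 4.85% lower. The risers were PSMD8 and PSMD3 of the lid and PSMB3 of the beta ring. The fallers were PSMA2, PSMA3 and PSMA4 of the alpha ring, PSMC1 and PSMD1 of the base and PSMD12 of the lid. The median log2 fold change of the 30 was −0.13, beside −0.0021 for all tested genes, and 10 lay above 0 and 20 below. With 1 library left out this median lay between −0.18 (PSME4 KD 1 left out) and −0.066 (PSME4 KD 2 left out). With the GC correction as well it was 0.021 when PSME4 KD 2 was left out. For 24 of the 30 subunits the groups were separate, with 9 higher and 15 lower in both PSME4 KD libraries, and over all tested genes this held for 55.0%, with 26.7% higher and 28.4% lower. In the authors' deposited table, 7 of the 30 had an adjusted p under 0.05, 3 of them higher and 4 lower in PSME4 KD, and all 7 are among the 9 called here. PSMC1 and PSMD12 are the exceptions.

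**Figure D1:**
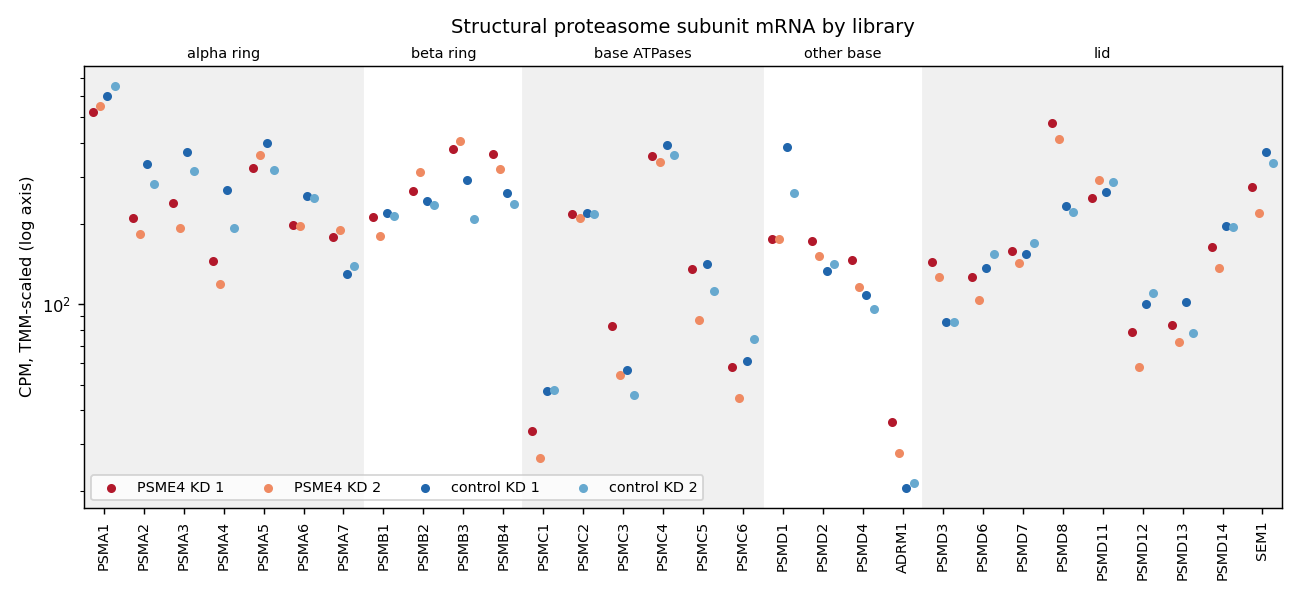
TMM-scaled CPM of each of the 30 subunits (log axis) in PSME4 KD 1 and 2 (reds) and control KD 1 and 2 (blues), 1 point per library, grouped by module. PSMD8 stood at 476 and 414 CPM in PSME4 KD, above 234 and 220.5 CPM in control KD, while PSMA4 and PSMD1 were lower in both PSME4 KD libraries than in both control KD libraries.

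The alpha ring leaned lower in PSME4 KD. Of its 7 subunits 3 fell, none rose and 4 did not pass by edgeR, and 4 had an unadjusted p under 0.05. By DESeq2 the same 3 passed, with adjusted p-values of 0.0204, 0.0209 and 0.0100 for PSMA2, PSMA3 and PSMA4. The median log2 fold change of the ring was −0.36, and its summed level was 1815 and 1794 CPM in PSME4 KD 1 and 2, against 2356 and 2149 CPM in control KD 1 and 2. These sums do not overlap between the groups.

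PSMA4, a gate-forming alpha subunit on chromosome 15, 78540405 to 78552417 on GRCh38, had 145 and 119 CPM in PSME4 KD, against 268 and 192 CPM in control KD. Both PSME4 KD libraries were below both control KD libraries, although the control KD libraries were also well apart. Its log2 fold change was −0.80 (SE 0.20, adjusted p = 0.0130, edgeR). PSMA3, another alpha subunit, at positions 58244843 to 58272004 of chromosome 14, had 239 and 193 CPM in PSME4 KD, against 370 and 315 CPM in control KD. The groups did not overlap, and its log2 fold change was −0.66 (SE 0.20, adjusted p = 0.0296, edgeR). PSMA2, at positions 42916861 to 42932174 of chromosome 7, had 209 and 183 CPM in PSME4 KD, against 334 and 281 CPM in control KD, again without overlap (log2 −0.65, SE 0.19, adjusted p = 0.0318, edgeR). PSMA2 has 3 named pseudogenes in GENCODE 29 and shares 781 exon bases with another protein-coding gene on its strand and 1043 with a pseudogene on the opposite strand, so its counts are uncertain. The called subunits PSMA3, PSMB3, PSMD8 and PSMD12 have 1 named pseudogene each, whose part in their counts was not tested.

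The other alpha subunits did not pass. PSMA7 went against the ring, with 178 and 189 CPM in PSME4 KD and 130.04 and 138 CPM in control KD. Its groups did not overlap, but its log2 value of 0.45 (SE 0.19) had an adjusted p of 0.123 by edgeR. PSMA1, the alpha subunit with the most counts, was at −0.23 (SE 0.19), PSMA6 at −0.36 (SE 0.19) and PSMA5 at −0.07 (SE 0.20), and of these only PSMA5 had overlapping groups. Like PSMA2, PSMA1 and PSMA6 share exon bases (814 and 919) with another protein-coding gene on their strand. PSMA6 also has 4 named pseudogenes, so the counts of both are uncertain.

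The non-catalytic beta subunits leaned the other way. Of 4 subunits PSMB3 rose, none fell and 3 did not pass by edgeR, where 2 had an unadjusted p under 0.05. The median log2 fold change was 0.37. The summed level was 1222 and 1217 CPM in PSME4 KD, against 1015 and 891 CPM in control KD, without overlap. PSMB3, a structural subunit of the beta ring, lies at positions 38752741 to 38764225 of chromosome 17. It had 380.0 and 408 CPM in PSME4 KD, against 292 and 208 CPM in control KD. The PSME4 KD libraries were both higher, and the control KD libraries differed from each other by 0.49 on the log2 scale. The log2 fold change was 0.66 (SE 0.20, adjusted p = 0.0351, edgeR). PSMB4, a structural subunit whose tail clasps the opposite ring in yeast, had 366 and 319 CPM in PSME4 KD and 261 and 236 CPM in control KD, a log2 value of 0.46 (SE 0.19, adjusted p = 0.121, edgeR). PSMB2 was at 0.27 (SE 0.19). PSMB1 was at −0.14 (SE 0.19), with 212 and 179 CPM in PSME4 KD and 219 and 213 CPM in control KD, and at 0.0030 without PSME4 KD 2.

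The ratio of the 2 summed rings, beta over alpha, was 0.673 and 0.678 in PSME4 KD 1 and 2, against 0.431 and 0.415 in control KD 1 and 2. With the constitutive catalytic subunits PSMB5, PSMB6 and PSMB7 added to the beta sum, it was 0.884 and 0.885 in PSME4 KD, against 0.577 and 0.553 in control KD. In both versions the libraries of a group lay close together and the groups were apart. The ratio of regulatory to core particle sums overlapped, at 1.04 and 0.928 in PSME4 KD and 0.953 and 0.991 in control KD. The ratio of lid to base sums did not overlap, at 1.24 and 1.27 in PSME4 KD, against 1.05 and 1.18 in control KD. PSMD8 alone made 476 and 414 CPM of the lid sum in PSME4 KD, against 234 and 220.5 CPM in control KD. The ratio was not computed without PSMD8, and 7 of the 9 lid subunits had a log2 fold change below 0. The median log2 fold change was nevertheless lower for the lid (−0.21) than for the base (−0.08). These ratios are descriptions, since genes of a ring are not replicates, and no test was made of them. With any 1 library left out the median log2 fold change stayed between −0.36 and −0.32 for the alpha ring and between 0.32 and 0.41 for the beta ring. With the GC correction as well, this median lay between −0.32 and −0.17 for the alpha ring and between 0.31 and 0.38 for the beta ring.

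**Figure D2:**
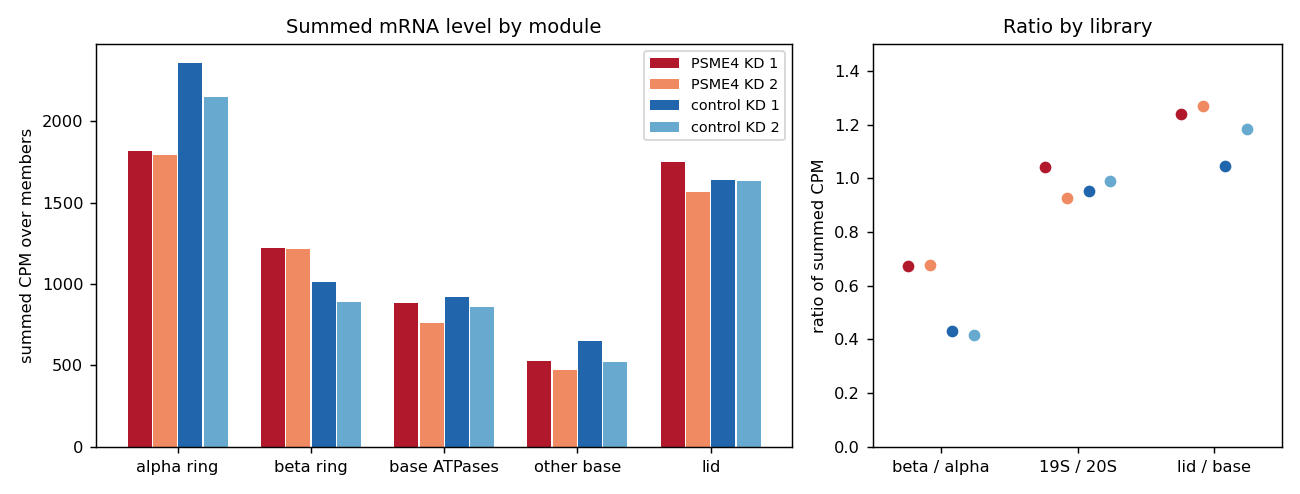
Left, CPM summed over the members of each module, 1 bar per library, PSME4 KD in reds and control KD in blues. Right, ratios of those sums in each library, with the beta over alpha ratio at 0.673 and 0.678 in PSME4 KD and 0.431 and 0.415 in control KD. The groups overlap for the 19S (regulatory particle) over 20S (core particle) ratio. They are separate for lid over base, at 1.24 and 1.27 in PSME4 KD and 1.05 and 1.18 in control KD. PSMD8 alone made 476 and 414 CPM of that lid sum in PSME4 KD and 234 and 220.5 CPM in control KD.

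Among the 6 ATPases of the base, PSMC1 fell, none rose and 5 did not pass by edgeR. PSMC1, one of the ATPases that dock into the alpha ring, lies at positions 90256553 to 90275429 of chromosome 14. It had 33.6 and 26.5 CPM in PSME4 KD, against 47.4 and 47.6 CPM in control KD. The control KD libraries were nearly equal and both above the PSME4 KD libraries, and the log2 fold change was −0.66 (SE 0.21, adjusted p = 0.0416, edgeR). PSMC1 has 13 named pseudogenes and shares 4671 exon bases with NRDE2 on the opposite strand, so its counts are uncertain. NRDE2 itself was at 0.23 (SE 0.24) and did not pass. PSMC3, another ATPase, had the highest log2 value of the 6, at 0.42 (SE 0.22), but 0.081 when PSME4 KD 1 was left out and 0.72 when PSME4 KD 2 was. It had 82.7 and 54.1 CPM in PSME4 KD and 56.7 and 45.7 CPM in control KD, so the groups overlapped and the PSME4 KD libraries were the more scattered. PSMC2, PSMC4, PSMC5 and PSMC6 were at −0.04, −0.12, −0.19 and −0.40, and PSMC2 had between 209 and 219 CPM in all 4 libraries.

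The other base subunits are the large scaffolds PSMD1 and PSMD2 and the ubiquitin receptors PSMD4 and ADRM1. PSMD1, the scaffold to which ADRM1 binds, showed the largest decrease of the 30 subunits. It had 175 and 175 CPM in PSME4 KD, against 388 and 260.3 CPM in control KD. The PSME4 KD libraries were nearly equal, and the control KD libraries were both higher but far apart. The log2 fold change was −0.89 (SE 0.21, adjusted p = 0.00671, edgeR), and −0.57 without control KD 1. The gene spans positions 231056867 to 231172827 of chromosome 2, and 559 of its exon bases are shared with HTR2B, a serotonin receptor gene on the opposite strand. HTR2B had 7.62 and 7.74 CPM in PSME4 KD, against 1.47 and 1.20 CPM in control KD, a log2 fold change of 2.51 (SE 0.36, adjusted p = 3.53e-05, edgeR), from 116, 118, 17 and 14 counts. Whether the authors' counting used strand is not stated, so reads of the 2 genes cannot be told apart in their overlap, and its part in either value was not tested.

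The remaining base subunits were higher in both PSME4 KD libraries than in both control KD libraries, without passing the test. ADRM1, a ubiquitin receptor that also recruits the deubiquitinase UCHL5, had 36.3 and 27.7 CPM in PSME4 KD and 20.6 and 21.5 CPM in control KD (log2 0.60, SE 0.22, adjusted p = 0.0784, edgeR). PSMD4, a ubiquitin receptor, was at 0.36 (SE 0.20), and PSMD2, a scaffold that receives shuttle factors, at 0.24 (SE 0.19). UCHL5 fell, with 44.1 and 28.7 CPM in PSME4 KD and 56.2 and 60.8 CPM in control KD (log2 −0.68, SE 0.22, adjusted p = 0.0410, edgeR), −0.38 without PSME4 KD 2 and −1.03 without PSME4 KD 1. PSMD1 and ADRM1, which touch in the particle, thus had values of opposite sign.

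The lid held both the largest increase and a decrease. Of 9 subunits 2 rose, 1 fell and 6 did not pass by edgeR, where 4 had an unadjusted p under 0.05. PSMD8, known in yeast as the last subunit to join the lid before it docks on the base, lies at positions 38374571 to 38383824 of chromosome 19. It had 476 and 414 CPM in PSME4 KD, against 234 and 220.5 CPM in control KD. Each PSME4 KD library was well above each control KD library, and the pairs were tight. The log2 fold change was 0.97 (SE 0.19, adjusted p = 0.00201, edgeR), from 13548 counts in PSME4 KD and 5264 in control KD. PSMD3, a lid scaffold subunit at positions 39980807 to 39997959 of chromosome 17, had 143 and 127 CPM in PSME4 KD, against 85.7 and 85.9 CPM in control KD. The control KD libraries were nearly equal and below both PSME4 KD libraries (log2 0.65, SE 0.19, adjusted p = 0.0299, edgeR).

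PSMD12, a lid scaffold subunit at positions 67337916 to 67366577 of chromosome 17, had 78.6 and 58.1 CPM in PSME4 KD, against 99.8 and 110.1 CPM in control KD. The groups did not overlap, and the adjusted p was just under the threshold (log2 −0.62, SE 0.20, adjusted p = 0.0480, edgeR). By DESeq2 it was 0.0551, and without PSME4 KD 2 the log2 value was −0.39. SEM1, a small acidic subunit that tethers other lid subunits, was at −0.52 (SE 0.20, adjusted p = 0.0816, edgeR), with 273 and 219 CPM in PSME4 KD and 370.5 and 337 CPM in control KD. The lid deubiquitinase PSMD14 was at −0.38 (SE 0.19) and its partner PSMD7 at −0.11 (SE 0.19), neither past the threshold. PSMD6, PSMD13 and PSMD11 were at −0.35, −0.21 and −0.02, and PSMD11, which clamps the lid to the core, had overlapping groups of 249.99 and 291 CPM in PSME4 KD and 263 and 285 CPM in control KD.

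**Figure D3:**
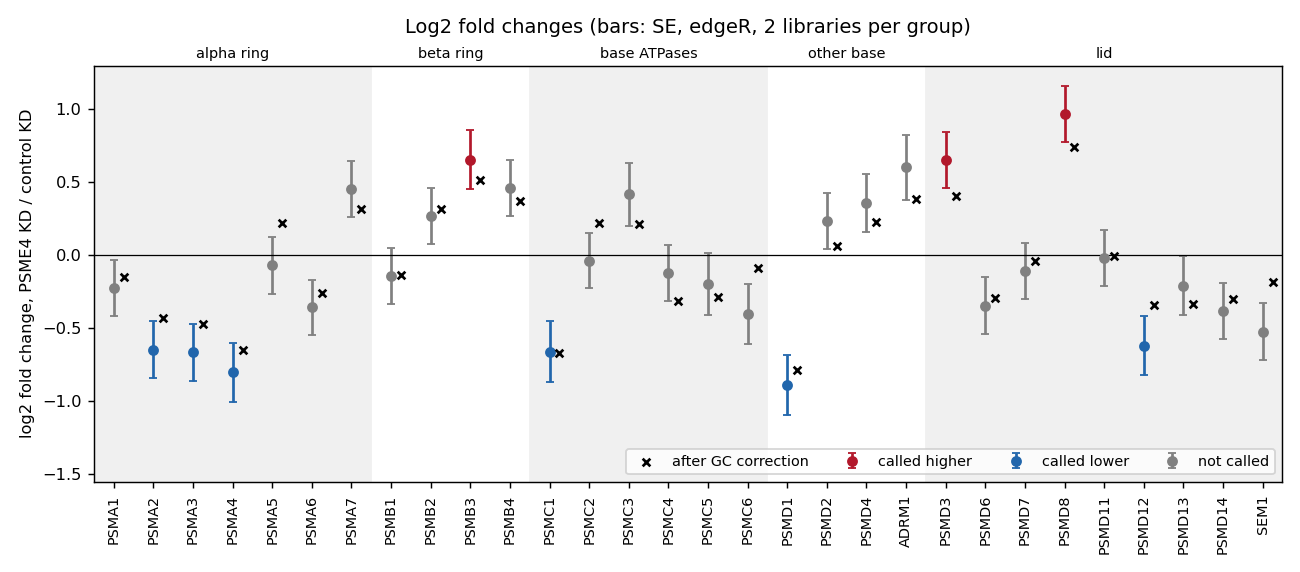
Log2 fold change of each subunit, PSME4 KD over control KD, with its SE (2 libraries per group), coloured by call at an adjusted p of 0.05, and a cross for the value after a correction for GC content. The 3 risers (PSMD8, PSMB3, PSMD3) and 6 fallers together lie in all 5 modules. Their crosses are nearer to 0 except that of PSMC1, and PSMB3, PSMD3, PSMA2, PSMA3 and PSMD12 no longer passed.

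Leaving out any 1 library ended most calls. PSMD8 was called without PSME4 KD 2 (log2 1.10) and PSMD1 without control KD 2 (log2 −1.14), and no other subunit was called in these 4 fits, in which 0.312% to 2.05% of all tested genes were called. All 9 subunits kept their sign, and PSMD8 ranged from 0.87 to 1.10. PSMB3 ranged from 0.44 without control KD 2 to 0.92 without control KD 1, and PSMD3 from 0.56 to 0.77. PSMA4 ranged from −1.02 without control KD 2 to −0.54 without control KD 1.

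**Figure D4:**
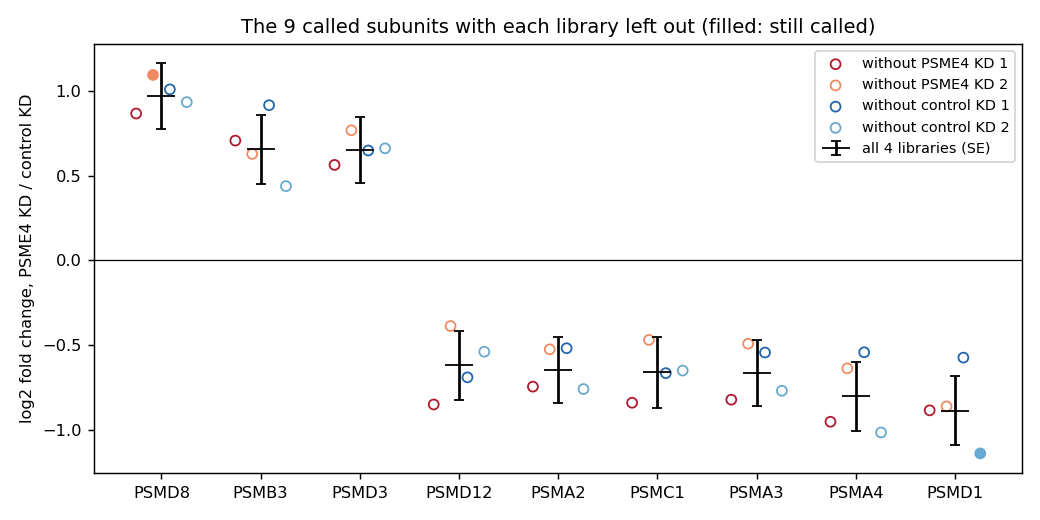
Log2 fold change of the 9 called subunits with all 4 libraries (black bar with SE) and with each library left out in turn (circles, filled where the subunit still passed). PSMD8 lay between 0.87 and 1.10, and only its value without PSME4 KD 2 and that of PSMD1 without control KD 2 are filled.

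Fold changes of the subunits followed the GC content of their transcripts. Across the 30 genes, which share their libraries and are not independent, Pearson's r was 0.73 and Spearman's rho 0.71, and across all tested genes rho was 0.41. Of the 15 subunits with the lowest GC content (34.9% to 46.5%) none rose and 5 fell by edgeR, and of the 15 with the highest (47.9% to 64.2%) 3 rose and 1 fell. The alpha subunits had a median GC content of 42.1% and the 4 beta subunits 50.02%. Between control KD 2 and control KD 1, rho with GC content was −0.50 over all tested genes and −0.05 over the 30 subunits. After each library was corrected for its GC trend, PSMD8 (log2 0.74, adjusted p = 0.0118), PSMD1 (−0.79, 0.0191), PSMC1 (−0.67, 0.0275) and PSMA4 (−0.65, 0.0473) passed by edgeR with Benjamini-Hochberg adjustment, with 8.93% of all genes called, 3.94% higher and 4.99% lower. PSMB3 was then at 0.52 (adjusted p = 0.0691), PSMD3 at 0.41, PSMA3 at −0.47, PSMA2 at −0.43 and PSMD12 at −0.34, none past the threshold by edgeR. The corrected fold changes were still higher at higher GC content over the 30 subunits, with Pearson's r 0.48 and Spearman's rho 0.48. The median was −0.25 for the alpha ring and 0.35 for the beta ring after the correction. PSMA5 and PSMC2 changed sign with it, to 0.22 each, without passing. With the correction and control KD 1 left out, PSMD8 was at 0.67, PSMC1 at −0.68, PSMD1 at −0.40 and PSMA4 at −0.29. With control KD 2 left out in its place, they were at 0.82, −0.65, −1.09 and −0.94.

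**Figure D5:**
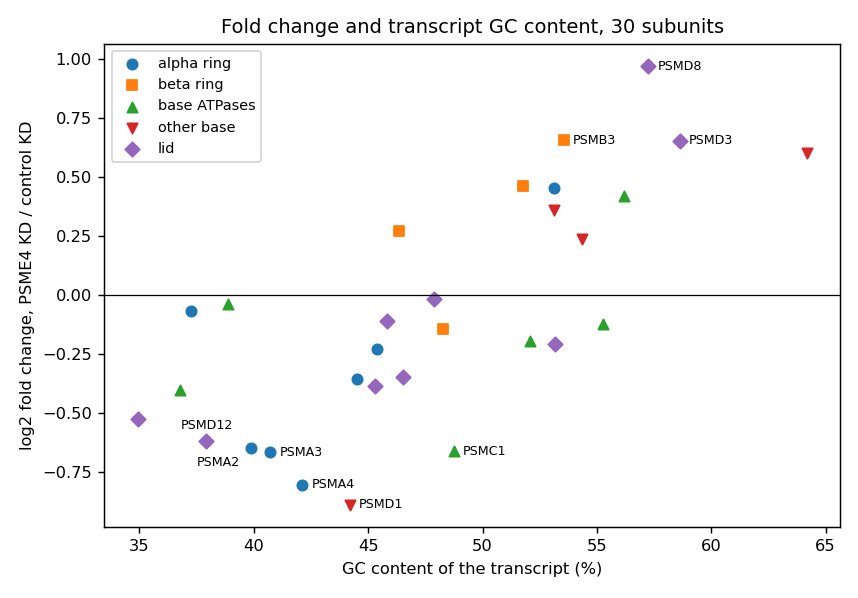
Log2 fold change, PSME4 KD over control KD, against the GC content of the longest principal transcript in GENCODE 29, 1 point per subunit with a marker for each module and names for the 9 called genes. Higher values lie at higher GC content (Pearson's r 0.73 over 30 genes), and PSMD1, PSMA4 and PSMC1 lie low for this GC content. It depends on the transcript chosen: that of PSMA4 has 4411 bases and its shortest principal transcript 1094, and other choices were not tested.

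The mRNA levels of the subunits differed widely, also within the core and within the regulatory particle, in each of which they stand in equal numbers. The numbers of core and regulatory particles in these cells were not measured. Per kilobase of the longest principal transcript, PSMB3 was highest in both PSME4 KD libraries, at 492 and 528 CPM per kb, and PSMA1 was highest in both control KD libraries, at 399 and 436. PSMC1 was lowest in all 4, at 7.56 and 5.96 CPM per kb in PSME4 KD and 10.7 and 10.7 in control KD. The median level of the 11 core subunits was 192 and 191 CPM per kb in PSME4 KD and 236 and 229.6 in control KD, and that of the 19 base and lid subunits was 66.4 and 58.7 in PSME4 KD and 71.7 and 71.1 in control KD. PSMD8 ranked 4 of 30 in PSME4 KD and 10 of 30 in control KD. The order depends on the transcript chosen: per kilobase of coding sequence SEM1, whose coding length is 210 bases, was highest in both groups, and PSMA4, whose longest principal transcript of 4411 bases is mostly untranslated, ranked 12 in place of 22 in control KD. ADRM1 and PSMC1 were among the 3 lowest on both scales in both groups.

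The promoters of the subunits are shown for the letters to which known regulators bind. RefSeq promoters on GRCh38.p14 (250 bases before to 50 after a start) were found for 27 of the 30 genes, 35 starts in all. The antioxidant response element core TGACNNNGC, which NFE2L1 and NFE2L2 bind with small MAF partners, was searched on both strands. It occurred in 10 of the 35 member promoters (28.6%), some of which overlap each other, and in 13.3% of all 35116 promoters. Among the genes with it were 2 that rose (PSMB3 and PSMD3), 3 that fell (PSMA4, PSMD1 and PSMD12) and 4 that did not pass. The 41-base windows below, printed 5′ to 3′ on the strand of the gene, hold the matches upstream of PSMB3 and PSMD3, which rose, and PSMD12, which fell; capitals mark the 9 matched letters, and all 3 are on the strand of the gene.
PSMB3, chr17:38752621-38752661, plus strand: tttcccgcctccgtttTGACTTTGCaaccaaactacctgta
PSMD3, chr17:39980754-39980794, plus strand: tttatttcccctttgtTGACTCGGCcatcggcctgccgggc
PSMD12, chr17:67366718-67366758, minus strand: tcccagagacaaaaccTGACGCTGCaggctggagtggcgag
The spacer letters differ between the 3 windows. The ETS core CCGGAAG, searched in the same way, occurred in 10 of the 35 member promoters (28.6%) and in 10.3% of all promoters, with PSMD8 the only riser and PSMC1 and PSMD12 the fallers among its genes. The 250 bases upstream of PSMD8, the largest increase, and PSMD1, the largest decrease, are given with matches to either motif in capitals.
PSMD8, chr19:38374321-38374570, plus strand: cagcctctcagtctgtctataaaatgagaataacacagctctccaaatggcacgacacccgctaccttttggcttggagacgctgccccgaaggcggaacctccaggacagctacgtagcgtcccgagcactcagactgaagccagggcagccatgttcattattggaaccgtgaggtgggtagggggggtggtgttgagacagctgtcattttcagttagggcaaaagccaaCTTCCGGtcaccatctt
PSMD1, chr2:231056617-231056866, plus strand: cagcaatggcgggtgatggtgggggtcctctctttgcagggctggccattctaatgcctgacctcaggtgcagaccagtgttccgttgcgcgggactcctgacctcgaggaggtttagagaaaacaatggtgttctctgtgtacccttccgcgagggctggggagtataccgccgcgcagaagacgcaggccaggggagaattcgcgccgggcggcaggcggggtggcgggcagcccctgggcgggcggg
The capitals in PSMD8 are an ETS core on the opposite strand. The match of PSMD1 to the antioxidant response element core lies after its start, and the PSMD1 stretch printed here holds neither motif. Its GC content is 65.2%, that of the PSMD8 stretch 54.0%, the reverse of the order of their transcripts. A match describes these letters and does not show binding.

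Other genes of the pathway were read from the same fit, in which 10.6% of all tested genes passed. An unadjusted p under 0.05 was reached by 26.2% of them. Of the 6 tested catalytic core subunits none rose or fell by edgeR, with 0 at an unadjusted p under 0.05 and 0 by DESeq2. Their log2 values lay between 0.11 for PSMB9 and 0.52 for PSMB8. After the GC correction PSMB6 was at −0.03 and PSMB9 at −0.07. Without control KD 2 they were at −0.12 and −0.31, and PSMB6 was at −0.06 without PSME4 KD 1. Of the 9 assembly factors POMP and PSMG1 fell, none rose and 7 did not pass. PSMG4, which helps to build the alpha ring, was at −0.65 (adjusted p = 0.0810), and at −0.81 (adjusted p = 0.0169) after the GC correction, both by edgeR. POMP, which matures the beta rings, had 93.5 and 78.1 CPM in PSME4 KD, against 188 and 168 CPM in control KD (log2 −1.05, SE 0.20, adjusted p = 0.00104, edgeR). PSMG1, part of the chaperone that builds the alpha ring, had 38.7 and 29.99 CPM in PSME4 KD, against 59.4 and 48.1 CPM in control KD (log2 −0.65, SE 0.21, adjusted p = 0.0472, edgeR). None of 4 genes around NFE2L1 passed by edgeR, and 1 had an unadjusted p under 0.05. NFE2L1 itself was at 0.09 (SE 0.20), with 61.7 and 54.6 CPM in PSME4 KD and 61.2 and 48.2 CPM in control KD, and NFE2L2 was at 0.51 (SE 0.21, adjusted p = 0.109, edgeR). Of the 5 activators and inhibitors of the core only PSME4, the targeted gene, passed. None of POMP, PSMG1, UCHL5 and COL1A1 passed in any fit with a library left out, and of these only POMP passed after the GC correction, at −0.68. By DESeq2 the adjusted p was 0.0609 for PSMG1, 0.0608 for UCHL5 and 0.0575 for COL1A1.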

How the data were processed

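The deposited table held raw counts per gene and library, per the file headers, with the authors' log2 fold change (control KD over PSME4 KD) and p-values in further columns. Cutadapt, STAR and DESeq2 with build hg38 are named in the submitters' processing notes. For counter, strand setting and annotation, the sources used here give nothing. Groups and replicates came from the sample titles.

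The counts were analysed in R 4.3.3. EdgeR 4.0.16 was run on all 4 libraries with filterByExpr, TMM, glmQLFit and glmQLFTest (2 residual degrees of freedom, no term other than group). Benjamini-Hochberg adjustment covered 13497 genes, with a threshold of 0.05. SEs are the log2 fold change over the square root of F. The biological coefficient of variation was 15.3%. Within groups, chi-square per degree of freedom between libraries was 17.4 in PSME4 KD and 21.2 in control KD, above counting noise. DESeq2 1.42.0 and limma 3.58.1 were alternatives.

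GC content and length are those of the longest APPRIS principal transcript in GENCODE 29, or else the longest transcript, found for 96.1% of tested genes. The GC correction subtracts a lowess trend (span 0.4) of each library as an edgeR offset. Coordinates are from RefSeq on GRCh38.p14, matched by symbol for all 30 members. Exon overlaps are from GENCODE 29 and were found for 12 members, 10 of them with a gene on the opposite strand.

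The members and gene lists were chosen with earlier results of these data known. Values of each library are given for PSME4, for subunits past the threshold, for the highest and lowest of each module and for some others added after seeing them. From the other lists, genes past the threshold and up to 2 more were named, except that the list of associated factors is not reported here beyond UCHL5. HTR2B, NRDE2, NFE2L1 and PSMB9 were added after their values were seen. The edgeR, limma voom, DESeq2 and replicate block fits were run on simulated counts with known changes. Those counts held no GC trend, and the GC correction was not tested on them.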

Additional observations from a re-analysis of the deposited data

How the results depend on the processing

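Scaling by DESeq2's size factors or library size, limma voom, DESeq2, either filter on counts, a threshold of 0.10 and the replicate block gave 3 or 4 subunits higher and 5 to 7 lower, beside 3 and 6. PSMD12 was the call lost by DESeq2, by library size alone and without a filter. The fit with the replicate number as a block gave 3 higher and 6 lower. Over genes, the deviations of same-numbered libraries from their group means were nearly uncorrelated (r −0.043). The labels do not say whether same-numbered libraries were made as pairs, and this r cannot show it. The GC correction gave 1 higher and 3 lower, and with the replicate block 2 higher and 3 lower. Without 1 library, counts were 0 to 1 higher and 0 to 1 lower, and with the GC correction as well, chosen after seeing the data, 0 to 1 higher and 0 to 5 lower. PSMB1 changed sign without PSME4 KD 2 (0.0030, beside −0.27 without PSME4 KD 1, and 0.022 with the GC correction), and PSMC3 with the GC correction without PSME4 KD 1 (−0.14). With 1 library left out, 5 more subunits that had not passed changed sign: PSMA5 (0.11 without control KD 1, 0.012 without PSME4 KD 1), PSMC2 (0.019 without PSME4 KD 2), PSMC5 (0.12 without PSME4 KD 2), PSMD11 (0.090 without PSME4 KD 1, 0.049 without control KD 2) and PSMD13 (0.0013 without control KD 1). The causes were not tested. Subunits had at least 488 counts per group, so the spread between libraries, not counting error, sets the precision.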

Other observations

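The lid of the proteasome has 2 relatives with subunits of the same folds, the COP9 signalosome, which removes NEDD8 from cullin ubiquitin ligases, and the translation initiation factor eIF3. Of 10 COP9 signalosome genes none passed by edgeR or in the GC-corrected fit, and 0 passed by DESeq2. An unadjusted p under 0.05 by edgeR was reached by 3 of the 10, beside 26.2% of all tested genes. The 3 are COPS3 (log2 −0.40, SE 0.19), COPS4 (−0.47, SE 0.20) and COPS8 (−0.41, SE 0.19). The median log2 fold change of the complex was −0.15, and with 1 library left out it lay between −0.26 without PSME4 KD 1 and 0.17 without control KD 1, so its sign depended on the library.

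Of 12 tested eIF3 genes 2 fell and none rose, beside 6.0% lower and 4.56% higher over all tested genes. EIF3J, a loosely bound subunit, had 23.9 and 16.1 CPM in PSME4 KD, against 40.4 and 31.9 CPM in control KD (log2 −0.85, SE 0.23, adjusted p = 0.0189, edgeR). EIF3E had 389 and 329.8 CPM in PSME4 KD, against 614 and 598 CPM in control KD (log2 −0.75, SE 0.19, adjusted p = 0.0135, edgeR). Neither passed with any 1 library left out or after the GC correction, where EIF3J was at −0.61 and EIF3E at −0.49. The median of the complex was 0.15. Whether these complexes differ from the lid was not tested.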
